A study of Mus musculus with 6 samples.

Results

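Heparan sulfate is a sugar chain carried by cell surface and matrix proteins, and the genes described here encode 10 of the enzymes that write or edit its sulfate pattern. They were chosen by name, with earlier results of these data known. All 10 were among the 16703 genes measured in the hippocampus of young and aged mice. They are the extracellular 6-O-endosulfatases Sulf1 and Sulf2, the N-deacetylase/N-sulfotransferases Ndst1, Ndst2 and Ndst3, the 2-O-sulfotransferase Hs2st1, the 6-O-sulfotransferases Hs6st1 and Hs6st2, and the 3-O-sulfotransferases Hs3st1 and Hs3st2. RNA abundance was compared between 3 young hippocampi (3-month-old) and 3 aged hippocampi (20-month-old), all from male C57BL/6 mice with no other genotype or treatment named, in poly(A)-selected directional libraries, 1 per mouse. The methods state that these replicates were selected after a preliminary qPCR assay, without naming the criterion. The paper reports qRT-PCR of Neat1, C4b, Trem2 and Cldn2 in hippocampal RNA, with Cldn2 lower and the others higher in the aged samples. Whether these genes guided the selection is not said. Cldn2 is on the choroid plexus list and Trem2 on the microglia list of markers used below. The question was which transcripts differ in abundance with age.

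The heparan sulfate chain is built in the Golgi on a linker attached to a core protein. The Ndst enzymes exchange acetyl for sulfate groups along the growing chain, which opens those stretches to the epimerase and then to the 2-O-, 6-O- and 3-O-sulfotransferases. Sulf1 and Sulf2 act last and outside the cell, where they clip 6-O-sulfates from highly sulfated stretches, and by this they loosen or strengthen the hold of the chain on FGF, Wnt, BMP and other ligands.

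Sulf1 and Sulf2 belong to a sulfatase family whose catalytic cysteine, in the motif Cys-X-Pro-Ser-Arg, is converted to formylglycine by the activating enzyme Sumf1. In the GENCODE M21 coding sequences (GRCm38) the motif occurred 1 time in each, with the cysteine at residue 87 of 870 in Sulf1 and at residue 88 of 875 in Sulf2. The 30 coding bases around it are shown because they mark these genes as sulfatases and show how far the pair differ at this site only. They are coding bases 253 to 282 of Sulf1 and 256 to 285 of Sulf2, counted from the A of the start codon. The motif codons are in capitals.
Sulf1: cccatgTGCTGTCCATCACGCtcatccatg
Sulf2: ccaatgTGCTGTCCGTCTCGCtcctccatt
Over these stretches 25 of 30 bases were identical, as were 13 of the 15 motif bases. Over the whole proteins 66.5% of 846 aligned residues were identical between Sulf1 and Sulf2. Identity within the other families ranged from 42.6% (Hs3st1 and Hs3st2, 305 aligned residues) to 71.3% (Ndst1 and Ndst2, 876 aligned residues).

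Of the 10 enzyme genes, Sulf1 alone was called as different with age, and it fell, to a mean of 15.9 CPM from 31.3 CPM. The paper had already named Sulf1 among the downregulated genes of its own RNA-Seq comparison, under extracellular matrix organization. The data are the same, so the call here is not independent of that result. Values are CPM, read counts scaled to a common library size, computed from the authors' adjusted counts, from which a factor of unwanted variation had been removed. Each gene was tested with limma on log2 CPM, and a gene was called at a Benjamini-Hochberg adjusted p under 0.05 over all 16703 genes. By that rule 1.98% of all genes were called, 0.784% as lower and 1.2% as higher in the aged group. Among the enzyme genes 1 of 10 was called lower and 0 of 10 higher by limma. An unadjusted p under 0.05 was found for 3 of the 10 and for 2485 of all 16703 genes. The median log2 fold change was 0.03 over the 10 genes and 0.00 over all genes. The median size of the change, ignoring its sign, was 0.11 over the 10 genes and 0.10 over all genes. The aged and young values did not overlap for 4 of the 10, namely Sulf1, Sulf2, Hs2st1 and Hs3st1, where 27.2% of all genes had groups that did not overlap.

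**Figure D1:**
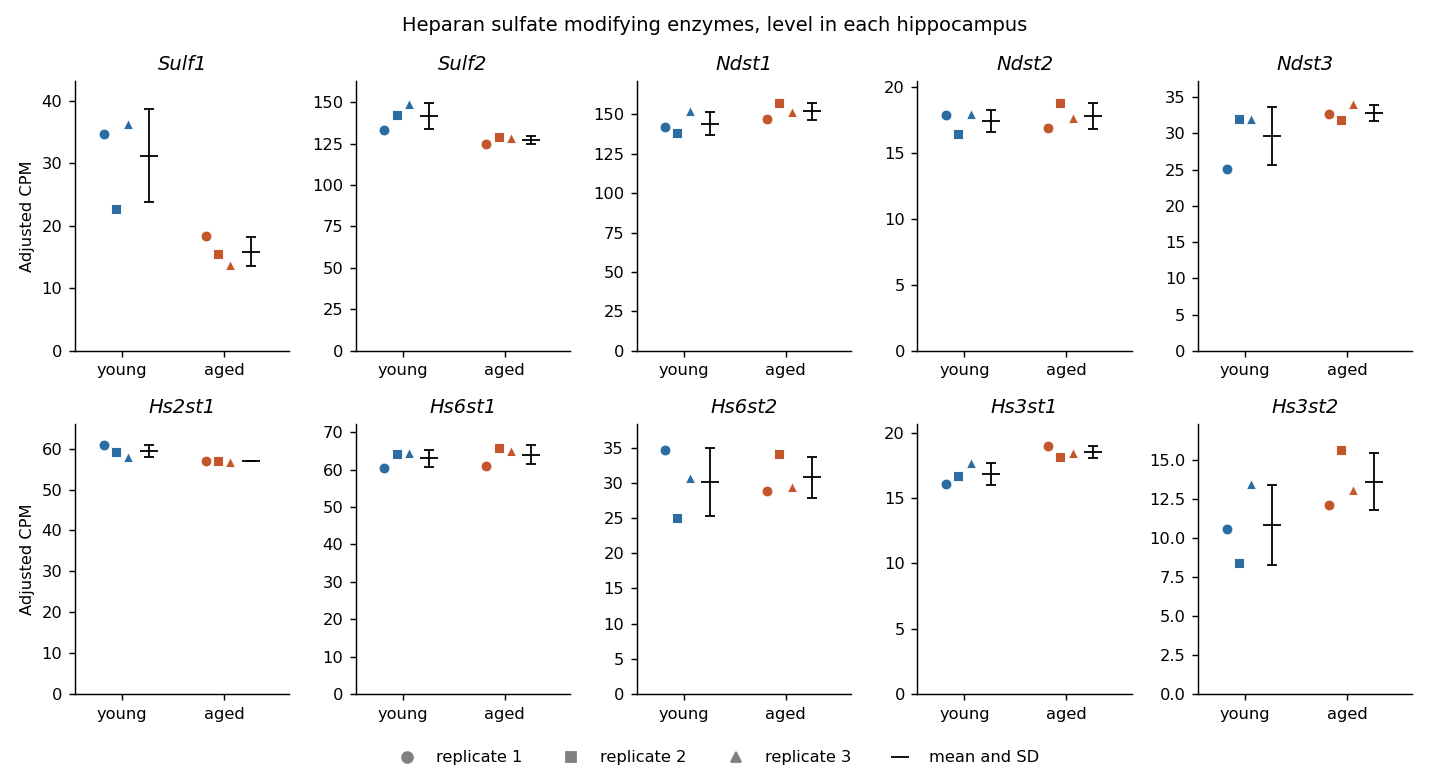
Adjusted CPM of each of the 10 enzyme genes (vertical axis from 0, own scale in each panel) in the 3 young (blue) and 3 aged (orange) hippocampi, with the mean and SD of each group beside the points. The 3 aged Sulf1 values lie between 13.8 and 18.3 CPM, all below the lowest young value of 22.7 CPM.

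Sulf1 (ENSMUSG00000016918.16) was measured at 34.8, 22.7 and 36.3 CPM in young replicates 1 to 3 and at 18.3, 15.6 and 13.8 CPM in aged replicates 1 to 3. All aged libraries were below all young ones, with young replicate 2 nearest to the aged group. The mean fell from 31.3 ± 7.48 CPM (SD, n = 3) to 15.9 ± 2.27 CPM (SD, n = 3). The log2 fold change was -0.95 (SE 0.15, adjusted p = 0.0041 by limma with Benjamini-Hochberg adjustment), a ratio of aged to young with a 95% interval from 0.414 to 0.646. Only 0.473% of all genes had a change as low or lower. Sulf1 was also the most variable of the 10 genes among the young mice, with an SD of 0.37 in log2 CPM, where the median gene (mean of at least 1 CPM) had 0.10. The call was lost without young replicate 1 (log2 fold change -0.85, adjusted p = 0.061 by limma) and without aged replicate 3 (-0.30, adjusted p = 0.48), a fit in which age and the removed factor were correlated at -0.754. With the removed factor not a term, the call was kept without aged replicate 3 (-0.85, adjusted p = 0.014 by limma). It was lost without young replicate 1 (-0.86, adjusted p = 0.099). It was also lost with a robust (adjusted p = 0.17) or an untrended (adjusted p = 0.31) variance prior in limma, and without young replicate 3 where the removed factor was not a term (adjusted p = 0.071), all with a negative log2 fold change.

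Sulf2 (ENSMUSG00000006800.15), the more abundant of the pair, was measured at 133.5, 142.1 and 149.2 CPM in the young and at 124.7, 129.1 and 128.3 CPM in the aged libraries. The groups did not overlap, but the gap was small, from means of 142 ± 7.88 to 127 ± 2.31 CPM (SD, n = 3 each). The log2 fold change of -0.15 (SE 0.05) did not pass the test (adjusted p = 0.17 by limma), and its 95% interval as a ratio ran from 0.834 to 0.972. Exons of Ncoa3 overlap those of Sulf2 on the opposite strand, and no source used here says whether strand was used in the counting.

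The ratio of the 2 endosulfatases within a library does not depend on how libraries are scaled. It does depend on the removal of the unwanted factor, which was not a term in the test of the ratio. Sulf1 CPM amounted to 26.1%, 16.0% and 24.4% of Sulf2 CPM in the young libraries and to 14.8%, 12.1% and 10.8% in the aged ones. The aged shares were thus all below the young ones, again with young replicate 2 closest. The mean log2 ratio went from -2.20 (SD 0.38, n = 3) to -3.00 (SD 0.23, n = 3), a difference of -0.80 (exact two-sided permutation test, p = 0.1, the smallest that 3 against 3 allows).

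The N-deacetylase/N-sulfotransferases start the sulfation of the chain. Ndst1 (ENSMUSG00000054008.10), the most abundant of them, was at 142.3, 138.1 and 152.0 CPM in the young and at 146.8, 157.5 and 151.6 CPM in the aged libraries. Its groups overlapped, and the log2 fold change of 0.08 (SE 0.05) did not pass the test (adjusted p = 0.53 by limma), with a ratio between 0.978 and 1.14 at 95%. Ndst2 (ENSMUSG00000039308.7) stood at 17.8, 16.5 and 17.9 CPM in the young and 16.9, 18.8 and 17.7 CPM in the aged group. These ranges overlapped (log2 fold change 0.03, ratio between 0.885 and 1.18). Ndst3 (ENSMUSG00000027977.16), known mainly from the nervous system, was at 25.1, 32.0 and 32.0 CPM in the young and at 32.6, 31.9 and 34.0 CPM in the aged group. Young replicate 1 was the lowest library and the other young ones lay within the aged range (log2 fold change 0.15, SE 0.09, adjusted p = 0.49 by limma, ratio between 0.969 and 1.28).

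Hs2st1 (ENSMUSG00000040151.10), which adds sulfate to the 2-O position of the uronic acid, was at 60.9, 59.2 and 57.9 CPM in the young and at 57.0, 57.0 and 56.9 CPM in the aged libraries. The aged values were nearly the same and lay just under the lowest young value. The log2 fold change was -0.06 (SE 0.06, adjusted p = 0.70 by limma), with a ratio between 0.882 and 1.05.

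The 6-O-sulfotransferases add the group that Sulf1 and Sulf2 remove. Hs6st1 (ENSMUSG00000045216.8) was at 60.4, 64.1 and 64.4 CPM in the young and at 61.1, 65.8 and 65.1 CPM in the aged libraries. Replicate 1 was the lowest in both groups, which overlapped (log2 fold change 0.02, SE 0.06, adjusted p = 0.90 by limma, ratio between 0.930 and 1.11). Hs6st2 (ENSMUSG00000062184.12) was at 34.6, 24.9 and 30.7 CPM in the young and at 28.9, 34.1 and 29.4 CPM in the aged libraries. The young range enclosed the aged one (log2 fold change 0.04, SE 0.11, ratio between 0.877 and 1.21). The signs of Ndst2, Ndst3, Hs6st1 and Hs6st2 turned negative in 1 or more of the alternative fits, and no direction is given for them.

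The 3-O-sulfotransferases add a rare sulfate that creates binding sites for particular ligands, among them antithrombin for the Hs3st1 product. Hs3st1 (ENSMUSG00000051022.8) was at 16.1, 16.7 and 17.7 CPM in the young and at 19.0, 18.1 and 18.5 CPM in the aged libraries. The aged values were all above the young ones by a narrow margin, and the log2 fold change of 0.14 (SE 0.09) did not pass the test (adjusted p = 0.54 by limma, ratio between 0.958 and 1.26). Hs3st2 (ENSMUSG00000046321.9), a form found mainly in brain, was at 10.6, 8.42 and 13.5 CPM in the young and at 12.1, 15.7 and 13.1 CPM in the aged libraries. Young replicate 3 lay inside the aged range. The log2 fold change was 0.35 (SE 0.16), which had an adjusted p of 0.32 by limma and a ratio between 1.01 and 1.60. The log2 fold change ranged from 0.16 without young replicate 2 to 0.56 without aged replicate 3. The latter was 0.37 when the removed factor was not a term. Antisense exons of a predicted gene overlap Hs6st1 (Gm37335) and Hs3st2 (Gm36736). For 8 of the 10 genes the 95% interval lay within 1.5-fold in either direction, the exceptions being Sulf1 and Hs3st2.

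**Figure D2:**
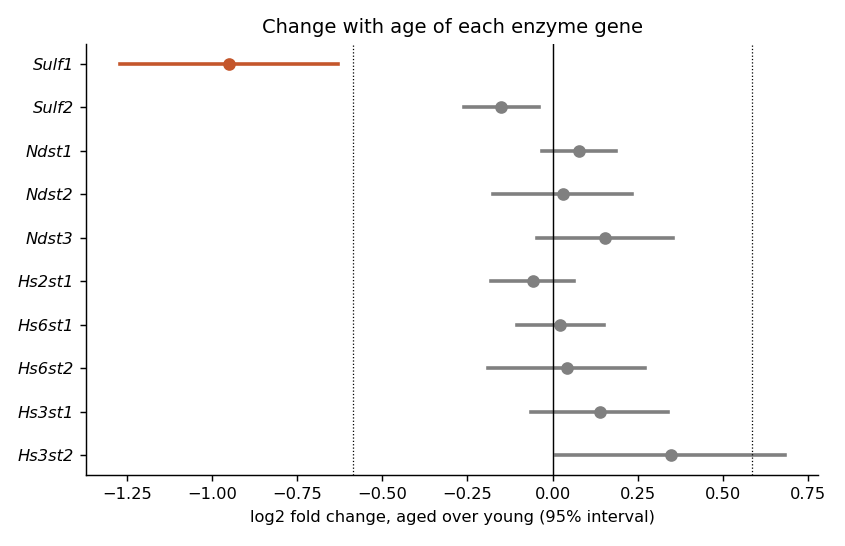
Log2 fold change of each enzyme gene (aged over young, horizontal axis) with its 95% interval from limma; dotted lines mark 1.5-fold in either direction and Sulf1, the called gene, is orange. The interval of Sulf1 lies wholly beyond the lower line, that of Hs3st2 (ratio 1.01 to 1.60) crosses the upper one, and the others lie between the lines.

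Levels were compared between genes as CPM per kilobase of the longest coding transcript in GENCODE M21, since CPM also rises with transcript length. Sulf2 was the highest at 30.9 ± 1.72 CPM per kb in the young group (SD, n = 3), followed by Ndst1 at 22.3 ± 1.10 and Hs6st1 at 16.9 ± 0.599 CPM per kb, and the libraries of these 3 genes did not overlap. Hs3st1 (9.99 ± 0.495 CPM per kb) and Hs2st1 (9.61 ± 0.240 CPM per kb) came next and overlapped in the young group. The remaining genes lay between 4.46 CPM per kb (Ndst2) and 6.92 CPM per kb (Hs6st2), and Sulf1, at 5.58 ± 1.34 CPM per kb, overlapped each of them. In the aged group Sulf1 was at 3.27, 2.78 and 2.46 CPM per kb, below every aged value of the other 9 genes, the lowest of which was 4.31 CPM per kb for Ndst2. Of the others, Hs6st2 and Hs3st2 overlapped in the aged group, as did Hs3st2 and Ndst3, while Hs3st1 lay above Hs2st1 in every aged library. Sulf1 thus went from rank 7 in the young to rank 10 in the aged group. This order rests on the transcript chosen, since the union of the Sulf1 exons is 11.294 kb against 5.598 kb for the transcript, and per kilobase of exon union Sulf1 ranked 10 of 10 in both groups.

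**Figure D3:**
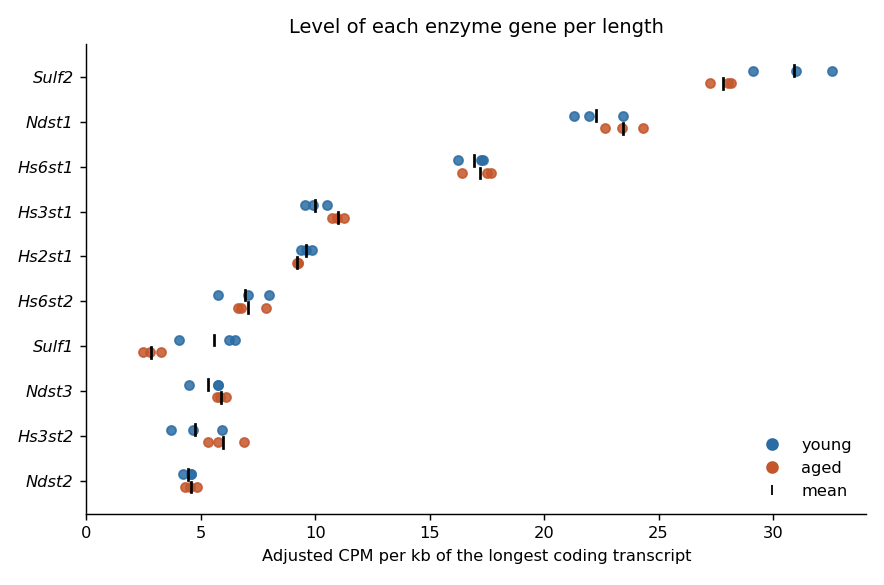
Level of each enzyme gene in each hippocampus as adjusted CPM per kb of the longest coding transcript (horizontal axis from 0), young in blue, aged in orange, with the group mean as a bar. Sulf2, Ndst1 and Hs6st1 stand above the rest, and the 3 aged Sulf1 values (2.46 to 3.27 CPM per kb) are the lowest points of the plot.

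The profile of Sulf1 over the 6 libraries was compared with that of every gene with a mean of at least 1 CPM, by the root mean square difference of log2 CPM after each gene was centred on its own mean. The nearest was Prlr, the prolactin receptor, with a difference of 0.10 beside a spread of 0.53 for Sulf1 itself. Next came Lhb, the beta subunit of luteinizing hormone (0.11), the cation channel gene Trpv4 (0.13), the melanosomal transporter gene Oca2 (0.13) and Kl, which encodes klotho (0.13). Prlr was at 23.6, 18.4 and 27.3 CPM in the young and at 12.1, 11.9 and 10.5 CPM in the aged libraries, with young replicate 2 again the lowest young library (log2 fold change -0.98). Kl was at 110.1, 73.2 and 105.3 CPM in the young and at 66.8, 42.8 and 42.2 CPM in the aged libraries (log2 fold change -0.94). Prlr and Kl are both on the list of choroid plexus markers used here. The mean profile of that list differed from Sulf1 by 0.50. Smaller differences were found for the Cajal-Retzius cell (0.43), dentate gyrus (0.47), oligodendrocyte precursor (0.48) and excitatory neuron (0.49) list means. The remaining marker lists differed by 0.51 (ependymal) to 0.72 (microglia). A flat profile would differ from Sulf1 by 0.53, the spread of Sulf1 itself. The measure thus favours list means that barely move, such as excitatory neuron (0.07 in young replicate 1, -0.06 in aged replicate 1). It counts against means that move more than Sulf1, such as choroid plexus (0.84 in young replicate 3, -1.40 in aged replicate 2). The differences therefore do not rank the lists by likeness in shape. The log2 fold change was -0.74 for Trpv4, -1.04 for Oca2 and -1.09 for Lhb, which had a mean of 1.22 CPM. These 5 genes were selected for their likeness to Sulf1 over the same 6 libraries, which fixes their direction with age, so no test is given for them. Without aged replicate 3 their log2 fold changes were smaller, from -0.59 (Prlr) to -0.17 (Kl). Age and the removed factor were correlated at -0.754 in that fit. With the same library left out and the removed factor not a term, the changes ran from -0.98 (Lhb) to -0.66 (Trpv4).

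**Figure D4:**
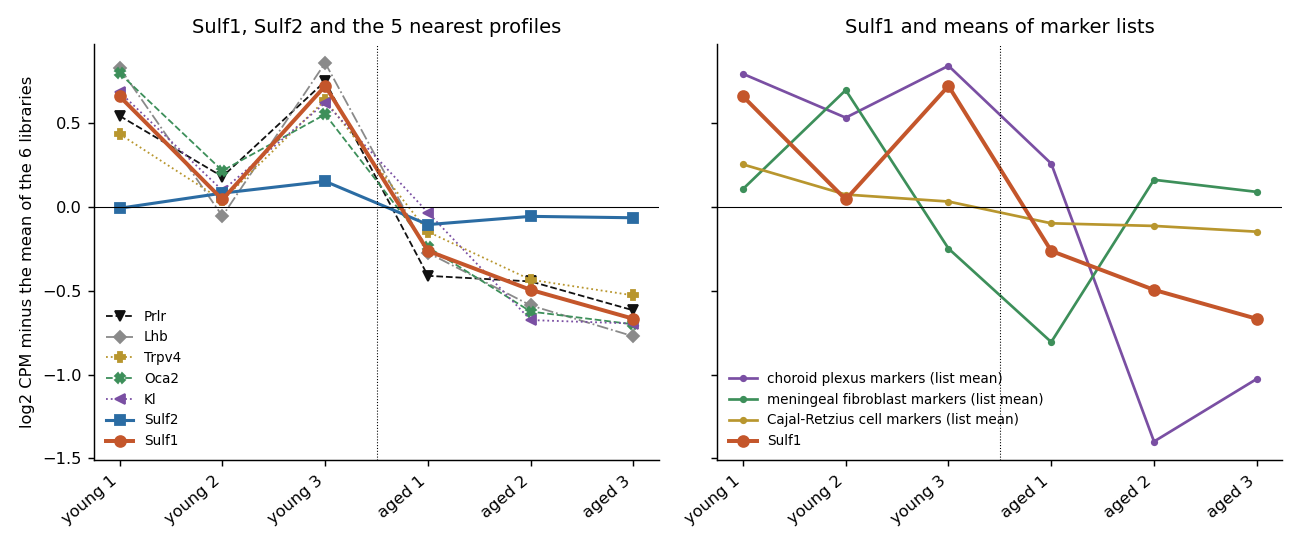
Log2 CPM minus the mean of the 6 libraries (vertical axis) for Sulf1, Sulf2 and the 5 genes nearest to Sulf1 (left) and for Sulf1 and the mean of 3 marker lists (right), per library, the dotted line parting young from aged. Lines only join the values of 1 gene or list. The 5 genes follow Sulf1 because they were selected for it. The choroid plexus mean is at 0.26 in aged replicate 1 and at -1.40 and -1.03 in aged replicates 2 and 3.

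The samples were hippocampus by their markers, with summed levels of 8 excitatory neuron markers between 7286 and 7856 CPM, 5 dentate gyrus markers between 343 and 414 CPM and 5 CA1 markers between 625 and 716 CPM over all 6 libraries. Choroid plexus, the secretory epithelium of the ventricles, borders the hippocampus, and its markers were lower in the aged group. Of its 20 markers 13 were called lower and 0 higher, none had a zero count, and their summed level was 4071, 3529 and 3972 CPM in the young and 3337, 698 and 972 CPM in the aged libraries. Aged replicate 1 lay between the young and the other aged libraries in these markers, with a mean log2 CPM over the list of 4.13, against 4.40 to 4.71 in the young libraries and 2.47 and 2.85 in aged replicates 2 and 3. The young and aged groups did not overlap in 13 of the 20 markers, beside 27.2% of all genes. With the mean log2 CPM of Ttr, Folr1, Kl, Clic6 and Kcnj13 as a term in limma, which correlated with age at -0.795, the log2 fold change of Sulf1 was -0.60 (adjusted p = 0.42), and that fit called 34 genes higher and 31 lower over the whole table. In bulk tissue the amount of choroid plexus in a sample, fewer cells of a type and less RNA per cell cannot be told apart.

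Marker lists of other cell types were all shorter than the choroid plexus list of 20, so each count of calls is given with its list size. Of 14 meningeal fibroblast markers 3 were called lower, with summed levels of 168 to 284 CPM in the young and 120 to 213 CPM in the aged libraries. Of 4 measured Cajal-Retzius cell markers 1 was called lower (89.8 to 105 CPM summed in the young, 74.7 to 84.8 CPM in the aged libraries), as was 1 of 6 oligodendrocyte precursor markers (164 to 183 and 149 to 154 CPM). Of 8 microglia markers 5 were called higher (336 to 349 and 430 to 440 CPM), beside 13 of 20 choroid plexus markers called lower. Endothelial and ependymal markers had 0 calls among 8 and 6 genes, and the pericyte, astrocyte and oligodendrocyte lists had 1 of 8 called higher each. Among neurons 0 of 8 excitatory markers were called, 1 of 5 dentate gyrus markers was called lower, and 1 of 5 CA1 and 1 of 6 interneuron markers were called higher. The part of these lists in the Sulf1 result was not tested beyond the choroid plexus term.

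Beyond the 10 enzymes, 154 genes of heparan sulfate metabolism and signalling were followed in 11 lists by role. Of the 147 measured, 1 was called higher and 3 lower, beside 1.2% and 0.784% of all genes. The biosynthetic and degradative lists held 0 calls. These comprised 7 other heparan sulfate modifying enzymes (median log2 fold change 0.08), 7 linkage region enzymes (0.04), 5 chain polymerases (0.06), 10 genes of sulfate donor and precursor supply (0.01) and 8 lysosomal degradation genes (0.14).

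Among the other modifying enzymes the smallest p belonged to Hs3st3a1, a further 3-O-sulfotransferase, at 0.585 to 1.05 CPM in the young and 1.20 to 1.60 CPM in the aged libraries (log2 fold change 0.72, SE 0.33, adjusted p = 0.32 by limma). Its groups did not overlap, but its level was low, at most 1.60 CPM in any library. Glce, the epimerase that turns glucuronic into iduronic acid, had 0.14 (adjusted p = 0.55). In the linkage region list the xylosyltransferase gene Xylt1 had -0.07 (adjusted p = 0.66) and B3gat3, which adds the last linker sugar, 0.06 (adjusted p = 0.57). The exostosin-like glycosyltransferase genes Extl1 and Extl3 had 0.11 (adjusted p = 0.41) and 0.07 (adjusted p = 0.55). For the sulfate donor, Papss2, which makes it, had 0.20 (adjusted p = 0.39), and Ugdh, which makes the glucuronic acid precursor, had -0.11 (adjusted p = 0.59).

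Arsg, the lysosomal sulfatase that removes 3-O-sulfates, was at 32.7, 27.5 and 25.4 CPM in the young and at 36.9, 34.9 and 34.9 CPM in the aged libraries. All aged values were above the young ones, and its log2 fold change of 0.32 (SE 0.09) did not pass the test (adjusted p = 0.091 by limma). It was called in 2 of 22 alternative fits, with the replicate block (0.33, adjusted p = 0.036) and without young replicate 1 and the removed direction (0.43, adjusted p = 0.037). The replicate block left only 1 residual degree of freedom. The 8 measured activators and other sulfatases had 0 calls and a median of 0.02, with Galns at 0.19 (adjusted p = 0.48) and the little expressed Arsi at 0.40 (adjusted p = 0.62). Among 15 enzymes of chondroitin sulfate, the related chain that shares the linker, 0 were called (median -0.06). The uronyl 2-O-sulfotransferase gene Ust had -0.17 (adjusted p = 0.17) and the dermatan epimerase-like gene Dsel -0.31 (adjusted p = 0.17).

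**Figure D5:**
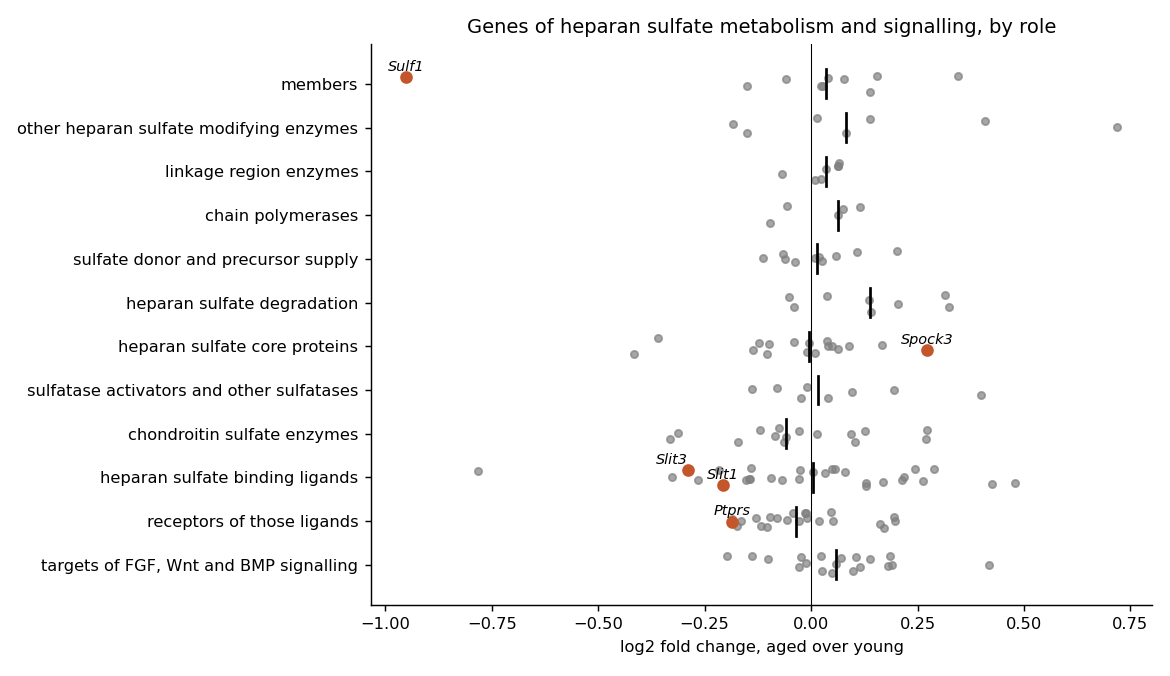
Log2 fold change (aged over young, horizontal axis) of the 10 enzyme genes (labelled members) and of the 147 other measured genes, by list; each point is a gene, the black bar the median of its list, and orange points are the called genes. The medians lie between -0.06 and 0.14, and Sulf1, at -0.95, is the lowest point of the plot.

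Of 17 core proteins that carry heparan sulfate, Spock3 (testican-3) rose, from 63.7, 63.0 and 63.7 CPM in the young to 83.1, 71.8 and 75.5 CPM in the aged libraries. The aged values were all above the young ones, which were nearly equal (log2 fold change 0.27, SE 0.06, adjusted p = 0.037 by limma). The median of the list was 0.00 and the matrix proteoglycan gene Agrn had -0.14 (adjusted p = 0.17). The call of Spock3 held in 10 of 22 alternative fits.

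Of 29 measured ligands that bind heparan sulfate 2 fell, both of the Slit family of axon guidance proteins. Slit1 was at 269.8, 306.2 and 283.3 CPM in the young and at 243.1, 246.2 and 253.7 CPM in the aged libraries (log2 fold change -0.21, SE 0.05, adjusted p = 0.042 by limma). Slit3 was at 61.6, 67.2 and 75.0 CPM in the young and at 53.7, 56.8 and 55.7 CPM in the aged libraries (-0.29, SE 0.07, adjusted p = 0.049). Neither gene's groups overlapped. Both calls were near the threshold and held in 8 (Slit1) and 6 (Slit3) of 22 alternative fits, and the median of the ligand list was 0.00.

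Of 22 receptors for these ligands Ptprs fell, a receptor tyrosine phosphatase of neurons that binds both heparan sulfate and chondroitin sulfate. It was at 504.9, 528.5 and 512.2 CPM in the young and at 444.0, 457.6 and 458.3 CPM in the aged libraries. The gap between the groups was wider than the range of either (log2 fold change -0.18, SE 0.04, adjusted p = 0.026 by limma), and the call held in 14 of 22 alternative fits. The receptor list had a median of -0.04, and Fgfr1 had -0.19 (adjusted p = 0.13). It was not called in 21 of 22 alternative fits. The exception was the fit without aged replicate 3 (-0.39, adjusted p = 0.033), where age and the removed factor were correlated at -0.754. With that library left out and the removed factor not a term, Fgfr1 had -0.21 (adjusted p = 0.14).

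The 19 measured targets of FGF, Wnt and BMP signalling, the pathways that heparan sulfate 6-O-sulfation is known to tune, had 0 calls and a median of 0.06. The BMP target Id3 was at 37.1, 35.3 and 37.0 CPM in the young and at 31.7, 32.3 and 31.4 CPM in the aged libraries (log2 fold change -0.20, SE 0.07, adjusted p = 0.19 by limma). Etv5, a target of FGF signalling, was at 82.8, 79.0 and 83.9 CPM in the young and at 84.7, 95.5 and 90.7 CPM in the aged libraries (0.14, SE 0.06, adjusted p = 0.27). The groups of both did not overlap, and neither passed the test over all genes.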

How the data were processed

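The authors made the libraries with a directional kit from poly(A)-selected RNA. The authors' processing notes name Trim Galore 0.6.6, STAR 2.7.8a, mm39, R 4.05 and edgeR 3.32.1. The authors' methods name Trimmomatic, uniquely mapped reads and a likelihood ratio test with an option of RUV (removal of unwanted variation). The authors deposited log2 CPM per library for 16703 genes, after a filter on low expression whose rule was not stated. The other deposited columns hold their own comparison (average log2 CPM, a likelihood ratio score, a p-value, an FDR and a log2 fold change) and were not used.

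Undoing the log2 values gave adjusted counts that were whole to within 5.88e-09 (totals 15238190 to 17548247). Among 1791 genes with a mean above 2000, 1 direction over the 6 libraries had only the spread of rounding (0.9863 times it, the next direction 414.8 times), so 1 factor had been removed. Sequencing depth therefore cannot be read from the totals, and counting intervals were not given.

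Age and the removed direction were the terms of a limma 3.58.1 model (R 4.3.3, trended prior) of the deposited log2 CPM, with 3 residual and 12.3 prior degrees of freedom and adjustment over all genes. It called 200 genes higher and 131 lower in the aged group (2485 at an unadjusted p under 0.05). The steps were also run on simulated data, whose outcome is not given here. Every simulated gene had the same dispersion, so that run does not cover a gene as variable among the young mice as Sulf1. Ratios were tested with SciPy 1.17.1, and proteins translated from GENCODE M21 were aligned with Biopython 1.88. Coordinates are not printed because that annotation is GRCm38.

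The enzymes, lists and tests were chosen with earlier results of these data known. Named were all 10 enzymes, all called genes of each list (otherwise the 2 of smallest p) and the 5 profiles nearest to Sulf1. Agrn and Fgfr1, outside that rule, were added after their values were seen, and a gene that the rule names is not reported here. Groups came from the sample labels. Alternatives comprised pseudocounts of 1 and 0.1, a filter at 1 CPM, equal medians, other variance priors, no removed direction, the mean of aged replicates 2 and 3, a replicate block, a choroid plexus term and each library left out.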

Additional observations from a re-analysis of the deposited data

How the results depend on the processing

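Of the 22 alternative fits, 15 kept the call of Sulf1 and all gave it a negative log2 fold change. It missed the threshold with the untrended prior (-0.95, adjusted p = 0.31), the robust prior (-0.95, 0.17) and the choroid plexus term (-0.60, 0.42), each with 0 enzyme genes called by limma. Leaving out 1 library gave -1.196 to -0.3014 for Sulf1, 0 to 1 called enzyme genes, 0 to 2 called pathway genes and 89 to 300 calls over all genes. Without the removed direction as well, these ranges were -1.165 to -0.8269, 0 to 1, 1 to 3 and 160 to 422, with Sulf1 at -0.8579 and 164 calls without young replicate 1. Calls over all genes were 523 with no removed direction, 65 with the choroid plexus term and 0 with the untrended prior (1881 at an unadjusted p under 0.05). Called pathway genes were 2 with equal medians and 0 with the untrended prior and the choroid plexus term, against 4. The causes were not tested. With the choroid plexus term the log2 fold change turned to -0.0592 for Ndst2, -0.06748 for Hs6st1, -0.04208 for Hs6st2, -0.008448 for Extl3 and -0.01483 for Glce. With 1 library left out it ran from -0.03807 to 0.06937 for Ndst2, from -0.01853 to 0.2214 for Ndst3, from -0.06781 to 0.05782 for Hs6st1, from -0.104 to 0.276 for Hs6st2 and from -0.2866 to 0.6868 for Arsi; without the removed direction as well, the values below 0 were -0.00717 for Hs6st1 (young replicate 1 left out), -0.01087 for Ndst2 and -0.08799 for Hs6st2 (young replicate 2), and -0.01224 and -0.03466 (aged replicate 2). Replicate numbers did not pair the samples (deviations of same-numbered samples correlated at 0.157, -0.253 and -0.457). The fit with the replicate block had 1 residual and 13.8 prior degrees of freedom, so its p-values rest largely on the prior. In that fit Sulf1 had -0.96 (adjusted p = 7.4e-05 by limma), 226 genes were called higher and 163 lower. The log2 ratio of Sulf1 to Sulf2 differed by -1.018 to -0.6648 with 1 library left out. With the mean of aged replicates 2 and 3 as 1 sample Sulf1 had -0.85 (adjusted p = 0.0051). With 3 mice per group the SE of the log2 fold change was 0.05 to 0.16 over the 10 enzymes, and read depth is unknown.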
